A study of Mus musculus with 16 samples.

Results

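Sterol and fatty acid synthesis was followed across the pancreas of lean and obese mice through 35 genes, all 35 of which were found among the 24411 gene symbols counted and passed the low-count filter that left 13660 genes. By reads summed over the mice the least counted of them was Idi1, with 18 to 57 reads per mouse, and the lowest count in 1 mouse was 12, for Tm7sf2. The genes were taken by symbol, and fall into 18 enzymes of sterol synthesis, 11 enzymes of fatty acid synthesis and desaturation, and 6 regulators and carriers. RNA came from whole pancreas of 16 male C57BL6/J mice at 12 weeks of age, 1 library per mouse. WT mice on control water numbered 5, with a body weight of 27.7 ± 3.22 g (SD, n = 5). Lep(ob/ob) mice on control water, which lack functional leptin and become obese, numbered 7 and weighed 51.0 ± 1.98 g (SD, n = 7). The third group held 4 Lep(ob/ob) mice given an antagonist of the cholecystokinin (CCK) receptors in the drinking water for 6 weeks up to 12 weeks of age (CCKRi), and weighed 54.8 ± 2.22 g (SD, n = 4). Of these, mice 69 and 72 received proglumide at 0.1 mg/ml and mice 74 and 76 received lorglumide at 0.05 mg/ml. The labels have the WT mice bred in house and the Lep(ob/ob) mice purchased, whereas the study's methods have both purchased.

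Cells make cholesterol from acetyl-CoA through the mevalonate pathway, in which Hmgcs1 acts early, Sqle makes the first oxygenated sterol precursor, and a late series of enzymes that includes Cyp51, Nsdhl and Dhcr7 trims the ring system. Fatty acids begin from the same acetyl-CoA, which Acly releases from citrate, Acaca commits and Fasn builds into chains that Elovl6 lengthens and Scd1 desaturates. The transcription factors encoded by Srebf2 and Srebf1 switch on the sterol and the fatty acid arm, respectively, Insig1 restrains both, and Mlxipl encodes ChREBP, a factor that responds to sugar. Adipocytes carry out much of the body's fatty acid synthesis and lie among the lobules of the pancreas, and Adipoq, an adipocyte hormone, served here as a measure of the fat in each piece of tissue.

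The labels divide the libraries into batches A and B. Library totals lay between 19.2 and 34.5 M counts in the 7 mice of batch A, of which 3 were WT and 4 Lep(ob/ob). They lay between 9.87 and 15.9 M counts in the 9 mice of batch B, of which 2 were WT, 3 Lep(ob/ob) and 4 CCKRi-treated. The share of the 50 most abundant genes was 79.2 to 85.0% for batch A and 49.3 to 77.1% for batch B. Acinar markers were present in every mouse, with a summed level of 98990 CPM (counts per M counts of the library, after TMM scaling) or more over 10 genes, and none of the 10 was at 0 in every mouse. The sum of 10 islet markers was 1327 to 1950 CPM in WT, 2611 to 13310 CPM in Lep(ob/ob) and 1588 to 15140 CPM in CCKRi-treated mice, and 7 of the 10 rose in Lep(ob/ob) mice at an adjusted p under 0.05 by edgeR, beside 5.93% of all genes that rose. The sum of 10 adipocyte markers was 103 to 374 CPM in WT, 93.2 to 2103 CPM in Lep(ob/ob) and 261 to 1516 CPM in CCKRi-treated mice. No adipocyte marker was at 0 in every mouse. In Lep(ob/ob) mice 7 of the 10 had an estimate above 0, and the median log2 fold change over the 10 was 1.44. At an adjusted p under 0.05 (edgeR) none rose and 2 fell. At an unadjusted p under 0.05 there were 7 in either direction, the 2 that fell among them, beside 23.8% of all genes. Of the other cell type lists, 1 of 10 acinar markers fell, 1 of 8 duct markers rose and 1 fell, and none of 7 macrophage, 5 tested lymphocyte, 6 mesenchymal and 5 endothelial markers passed, beside 9.07% of all genes in either direction. Fewer cells of a type and less RNA per cell cannot be told apart in whole tissue.

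The regulatory sequence of the 4 genes that passed between the genotypes, and of Hmgcs1 and Fasn as 1 enzyme of each arm, is shown first, for RefSeq transcript starts on GRCm38.p6. Srebf1 has 3 such starts, of which the one shown is the most downstream, and 1 of the others has no marked motif in its 200 bases. Promoters were at hand for 28 of the 35 genes. Each line gives the 200 bases before the transcript start, 5′ to 3′ on the gene's strand. Capitals mark CCAAT or its reverse complement ATTGG (the CCAAT box bound by NF-Y), TCACNCCAC on either strand with N for any base (a sterol regulatory element, the SREBP site), and CACGTG (an E-box, the same on both strands).
Hmgcs1, chr13:119690151-119690350, plus strand: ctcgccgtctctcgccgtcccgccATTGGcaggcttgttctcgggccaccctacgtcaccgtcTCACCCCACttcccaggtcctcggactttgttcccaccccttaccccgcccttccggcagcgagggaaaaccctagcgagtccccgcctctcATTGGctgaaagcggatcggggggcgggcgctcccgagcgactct
Fasn, chr11:120824548-120824747, minus strand: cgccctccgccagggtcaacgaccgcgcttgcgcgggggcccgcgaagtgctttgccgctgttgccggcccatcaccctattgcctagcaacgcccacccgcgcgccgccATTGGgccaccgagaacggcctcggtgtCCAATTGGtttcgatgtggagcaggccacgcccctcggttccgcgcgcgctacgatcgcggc
Srebf1, chr11:60210472-60210671, minus strand: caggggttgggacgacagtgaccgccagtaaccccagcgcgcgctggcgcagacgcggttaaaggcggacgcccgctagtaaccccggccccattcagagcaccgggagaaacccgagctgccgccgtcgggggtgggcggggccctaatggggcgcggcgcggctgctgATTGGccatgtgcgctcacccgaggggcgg
Mlxipl, upstream start, chr5:135089690-135089889, plus strand: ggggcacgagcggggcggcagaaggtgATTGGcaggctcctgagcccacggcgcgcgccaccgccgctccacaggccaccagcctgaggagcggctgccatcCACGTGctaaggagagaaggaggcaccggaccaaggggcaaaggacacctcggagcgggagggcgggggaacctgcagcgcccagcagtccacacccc
Mlxipl, downstream start, chr5:135106691-135106890, plus strand: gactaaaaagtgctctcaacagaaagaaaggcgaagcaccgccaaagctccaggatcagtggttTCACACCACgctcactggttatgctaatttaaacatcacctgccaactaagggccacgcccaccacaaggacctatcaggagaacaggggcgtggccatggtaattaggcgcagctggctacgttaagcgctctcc
Acly, chr11:100528001-100528200, minus strand: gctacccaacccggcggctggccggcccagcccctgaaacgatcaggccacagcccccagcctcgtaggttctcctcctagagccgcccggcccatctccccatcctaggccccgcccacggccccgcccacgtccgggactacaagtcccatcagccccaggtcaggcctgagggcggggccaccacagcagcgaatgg
Tmem97, chr11:78550736-78550935, minus strand: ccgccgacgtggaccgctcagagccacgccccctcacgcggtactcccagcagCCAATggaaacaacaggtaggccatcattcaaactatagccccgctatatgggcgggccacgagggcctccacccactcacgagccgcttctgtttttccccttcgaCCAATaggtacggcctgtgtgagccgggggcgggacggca

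In windows of 300 bases, from 250 before to 50 after the start, the CCAAT letters stood in 25 of 35 promoters of these genes, or 71.4%, beside 37.4% of 32851 mouse promoters. They occurred in 14 of 15 sterol enzyme genes, 5 of 5 regulators and carriers and 5 of 8 fatty acid enzyme genes. The 200 bases of Acly hold none of the motifs, and its CCAAT letters lie after the start. In Fasn, a CCAAT and an ATTGG share letters and are printed as 1 run. TCACNCCAC stood in 2 of the 35 promoters, those of Hmgcs1 and of the downstream Mlxipl start, or 5.71%, beside 1.24% of all promoters. CACGTG stood in 6 of the 35 promoters, or 17.1%, beside 7.15% of all promoters. A match is a description of letters, and binding was not measured.

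Levels between genes were set side by side per kilobase of exon. In WT mice Tmem97, a sterol-regulated membrane protein of the endoplasmic reticulum, had the highest mean level of the 35 genes, at 234 CPM per kb, followed by Scd1 at 38.3 CPM per kb. Acly stood at 16.6, Fasn at 10.3, Srebf1 at 4.60, Hmgcs1 at 3.49 and Mlxipl at 1.56 CPM per kb. In Lep(ob/ob) mice the mean of Scd1 was 329 CPM per kb and that of Tmem97 was 116 CPM per kb. Of the distinct stretches of 50 bases in Tmem97, 20.8% also occur in a transcript of another gene, so that some of its reads could be placed elsewhere.

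To ask what obesity changes, Lep(ob/ob) were compared with WT mice, with batch as a covariate. Of the 35 genes, 3 rose and 1 fell in Lep(ob/ob) mice, beside 9.07% of all genes tested that passed the same threshold (edgeR quasi-likelihood test, Benjamini-Hochberg adjusted p under 0.05 over 13660 genes). The count for these genes is near that share of all genes. The genes that rose were the transcription factor genes Srebf1 and Mlxipl and the citrate lyase gene Acly. The gene that fell was Tmem97. None of the 18 sterol enzymes passed, with 1 at an unadjusted p under 0.05, beside 23.8% of all genes. Of the 35 estimates 31 were above 0, and the median log2 fold change was 0.22 over the sterol enzymes, 0.70 over the fatty acid enzymes and -0.02 over all genes. Single mice moved these medians: they were 0.10 and 0.42 without WT mouse 59, 0.17 and 0.44 without WT mouse 58, and 0.13 and 0.56 without Lep(ob/ob) mouse 463. Without mice 417, 461, 463 and 69 together they were -0.01 and 0.12. These mice were picked for having the most Adipoq and none is WT. For genes that follow Adipoq this choice itself lowers the medians.

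**Figure D1:**
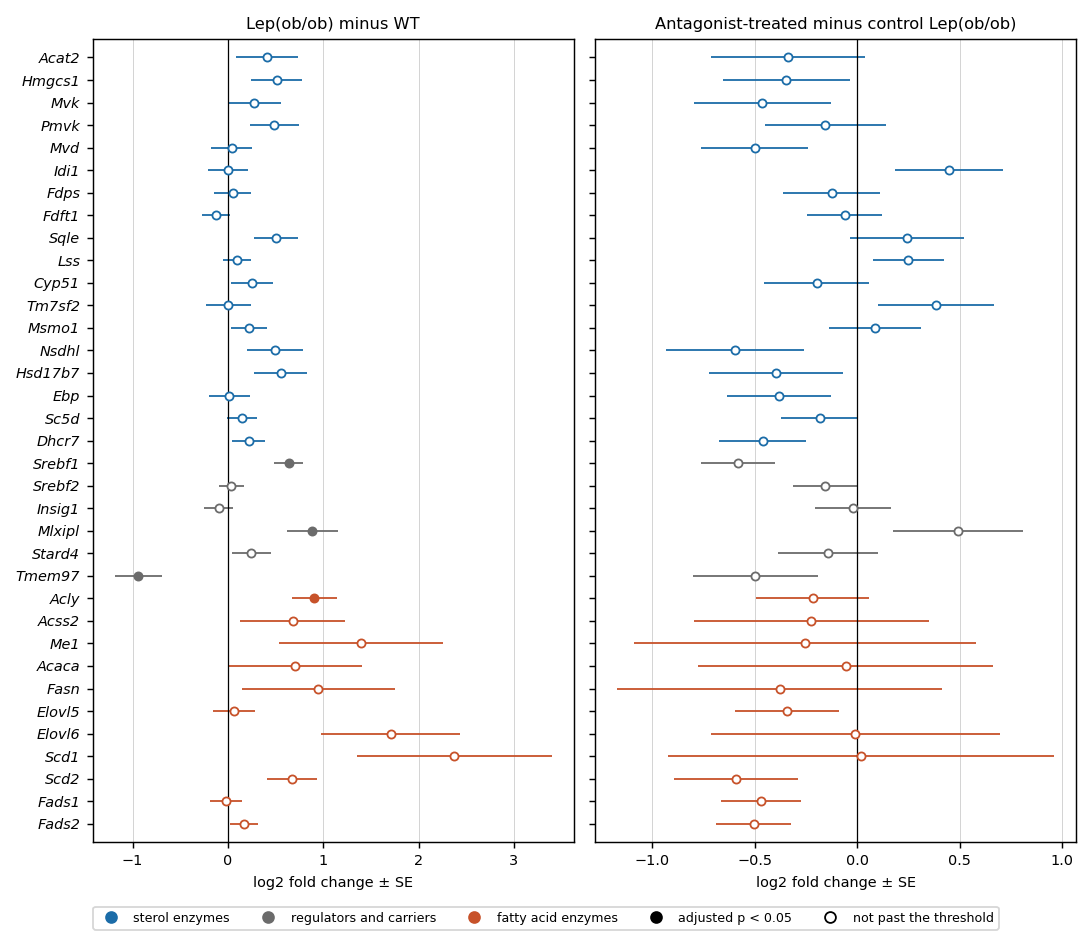
Log2 fold change with its standard error (edgeR, batch as covariate) for each of the 35 genes, for Lep(ob/ob) minus WT on the left and CCKRi-treated minus control Lep(ob/ob) on the right. Filled points passed an adjusted p of 0.05: Srebf1, Mlxipl, Tmem97 and Acly on the left, and no gene on the right, where 28 of 35 estimates lie below 0.

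Srebf1 (chr11:60199089-60222581, minus strand, 18 exon blocks) encodes the factor that drives fatty acid synthesis. Its level in WT mice was 33.4, 28.3 and 35.8 CPM in batch A and 14.2 and 18.0 CPM in batch B, and its lowest, median and highest levels in Lep(ob/ob) mice were 20.4, 42.8 and 49.4 CPM. In each batch every Lep(ob/ob) mouse was above every WT mouse, whereas the batches together overlap because levels were lower in batch B. In batch A 21.0% of all genes had no overlap in either direction, and the share in batch B was not counted. The log2 fold change was 0.64 ± 0.15 (SE, adjusted p = 0.0133 by edgeR), and without WT mouse 58 the adjusted p was 0.0518. Rai1 overlaps Srebf1 on the opposite strand, and the strand setting of the counting is not given in the sources used here.

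Mlxipl (chr5:135089890-135138382, plus strand, 15 exon blocks) encodes the carbohydrate response factor ChREBP. WT mice had 3.19, 5.48 and 7.60 CPM in batch A and 10.9 and 15.9 CPM in batch B, and Lep(ob/ob) mice had 8.88, 14.5 and 26.4 CPM as lowest, median and highest. The genotypes did not overlap in batch A (as for 21.0% of all genes) but did in batch B, where the 3 Lep(ob/ob) mice spanned 8.88 to 26.4 CPM. The log2 fold change was 0.89 ± 0.27 (SE, adjusted p = 0.0490 by edgeR). This call rests close to the threshold: it was kept in 3 of the 16 fits that each left out 1 mouse, with log2 fold changes between 0.71 and 1.08. Islet markers moved with genotype in the same direction, and with their mean log2 CPM as a covariate the log2 fold change of Mlxipl was 0.48 with an adjusted p of 0.294 by edgeR.

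Acly (chr11:100476353-100528000, minus strand, 30 exon blocks) makes cytosolic acetyl-CoA, the building block of both pathways. Its level in WT mice was 89.2, 104 and 120.1 CPM in batch A and 64.5 and 59.8 CPM in batch B, against 78.0, 159 and 251 CPM as lowest, median and highest in Lep(ob/ob) mice. Every Lep(ob/ob) mouse was above every WT mouse of its own batch, beside 21.0% of all genes without overlap in batch A and a share not counted for batch B. The log2 fold change was 0.91 ± 0.24 (SE, adjusted p = 0.0251 by edgeR), and the adjusted p was 0.0606 without WT mouse 5489, 0.0838 without WT mouse 58 and 0.0885 without WT mouse 59.

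Tmem97 (chr11:78541817-78550777, minus strand, 3 exon blocks) was the gene that fell. WT mice had 509, 353 and 374 CPM in batch A and 235 and 139.8 CPM in batch B, and Lep(ob/ob) mice had 69.9, 164.2 and 254 CPM as lowest, median and highest. All 4 Lep(ob/ob) mice of batch A were below all 3 WT mice of that batch (21.0% of all genes had no overlap there), and the groups overlapped in batch B. The log2 fold change was -0.94 ± 0.25 (SE, adjusted p = 0.0262 by edgeR). The call was lost on leaving out WT mouse 5489 (adjusted p = 0.0803), WT mouse 58 (adjusted p = 0.0884) or Lep(ob/ob) mouse 441 (adjusted p = 0.0513), 472 (adjusted p = 0.0536) or 417 (adjusted p = 0.0608). With Adipoq as a covariate the log2 fold change was -0.73, at an adjusted p of 0.0598 by edgeR.

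**Figure D2:**
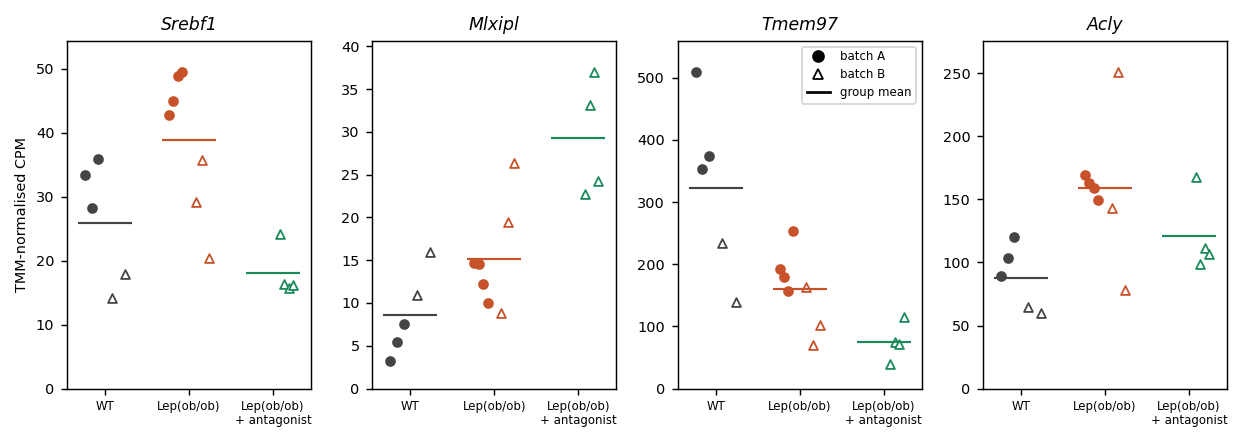
TMM-normalised CPM of Srebf1, Mlxipl, Tmem97 and Acly in each mouse (linear axes from 0), with filled circles for batch A, open triangles for batch B and a line at the group mean. Every Lep(ob/ob) mouse lies above the WT mice of its own batch for Srebf1 and Acly, and Tmem97 ranges from 509 CPM in the highest WT mouse to 39.9 CPM in the lowest CCKRi-treated mouse. In batch A 21.0% of all genes had no overlap between the genotypes.

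The other regulators did not pass the test. Srebf2, which drives sterol synthesis, had a log2 fold change of 0.04 ± 0.13 (SE, adjusted p = 0.895 by edgeR), Insig1 one of -0.10 ± 0.16 (SE, adjusted p = 0.756 by edgeR), and Stard4, a sterol carrier, one of 0.24 ± 0.21 (SE, adjusted p = 0.513 by edgeR).

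Among the sterol enzymes the estimates lay between -0.12 (Fdft1) and 0.55 (Hsd17b7) on the log2 scale, with adjusted p-values of 0.2 or more by edgeR. That of Hsd17b7 was 0.36 without WT mouse 59, and that of Hmgcs1, 0.51 over all mice, was 0.31 without mouse 463. Hsd17b7, a late step, had 2.28, 2.21, 1.53, 2.195 and 0.913 CPM in WT mice and 1.85, 2.42 and 3.77 CPM as lowest, median and highest in Lep(ob/ob) mice. Hmgcs1, which makes HMG-CoA, stood at 16.7, 14.4, 18.7, 15.3 and 15.03 CPM in WT mice and at 14.9, 16.99 and 48.4 CPM in Lep(ob/ob) mice. The Hmgcs1 levels of 4 Lep(ob/ob) mice lay within the WT range and those of mice 417, 461 and 463 lay above it. Sqle, the squalene epoxidase, had 12.4, 7.76 and 11.3 CPM in WT mice of batch A, 5.58 and 4.56 CPM in those of batch B, and 6.65, 11.4 and 15.9 CPM in Lep(ob/ob) mice. Mvk, Mvd and Nsdhl, described below for the antagonists, had log2 fold changes of 0.28, 0.04 and 0.50 between the genotypes, which were 0.10 for Mvk without WT mouse 59, 0.28 for Nsdhl without mouse 463 and between -0.09 and 0.25 for Mvd without 1 mouse.

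The fatty acid enzymes gave the largest estimates with the widest errors. Scd1 (chr19:44394455-44407879, minus strand), the stearoyl-CoA desaturase, stood at 104, 375 and 327 CPM in WT mice of batch A and at 52.2 and 78.9 CPM in those of batch B. In Lep(ob/ob) mice its lowest, median and highest levels were 213, 733 and 6424 CPM. The log2 fold change was 2.37 ± 1.02 (SE) with an adjusted p of 0.166 by edgeR, and DESeq2 placed Scd1 past the threshold. Elovl6, the elongase of saturated chains, had 2.66, 4.81, 6.29, 2.195 and 1.76 CPM in WT mice and 4.70, 7.22 and 65.0 CPM in Lep(ob/ob) mice, a log2 difference of 1.71 ± 0.73 (SE, adjusted p = 0.162 by edgeR). Me1, the cytosolic malic enzyme that supplies NADPH, had 5.08, 16.7, 23.7, 6.95 and 6.33 CPM in WT mice and 8.96, 18.9 and 211 CPM in Lep(ob/ob) mice, a log2 difference of 1.40 ± 0.86 (SE, adjusted p = 0.348 by edgeR) that was 0.86 without WT mouse 59 and 0.88 without WT mouse 58. In all 3 genes mouse 463 was the highest of the Lep(ob/ob) mice and mice 461 and 417 came next, the same animals that stood high for Hmgcs1. The brain-type desaturase gene Scd2 had 192, 116, 122, 76.1 and 62.7 CPM in WT mice and 75.0, 182 and 213 CPM in Lep(ob/ob) mice (log2 0.67 ± 0.26 SE, adjusted p = 0.126 by edgeR). Fads1, the delta-5 desaturase, had a log2 fold change of -0.02 ± 0.17 (SE) and Fads2, the delta-6 desaturase, one of 0.17 ± 0.15 (SE). When 1 mouse was left out they lay between -0.15 and 0.08 for Fads1 and between 0.07 and 0.25 for Fads2.

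To separate these levels from the fat in the tissue, each gene was fitted on the log2 CPM of Adipoq with group and batch as additive terms, so a genotype difference that varies between the batches enters the slope. Adipoq stood at 5.99, 22.9 and 21.6 CPM in WT mice of batch A and at 10.1 and 11.3 CPM in those of batch B. In Lep(ob/ob) mice its lowest, median and highest levels were 7.54, 33.0 and 211 CPM, and the CCKRi-treated mice 69, 72, 74 and 76 had 133, 47.3, 33.5 and 28.2 CPM. The highest were mice 463, 69, 461 and 417. Of the 35 genes, 15 had a positive slope past the threshold and none a negative one, where 18.9% of 13659 genes had a positive slope (edgeR, adjusted p under 0.05). The 15 were 8 of 11 fatty acid enzymes, 6 of 18 sterol enzymes and 1 of 6 regulators and carriers. The slopes had a median of 0.73 over the fatty acid enzymes, 0.10 over the sterol enzymes and -0.03 over all genes, in log2 units per log2 unit of Adipoq. The sterol median was 0.04 without mouse 463 and 0.06 without WT mouse 59, where the fatty acid median was 0.67 and 0.72. In batch A alone the sterol and fatty acid medians were -0.02 and 0.45, in batch B alone 0.13 and 0.86, and without the batch covariate 0.02 and 0.64.

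**Figure D3:**
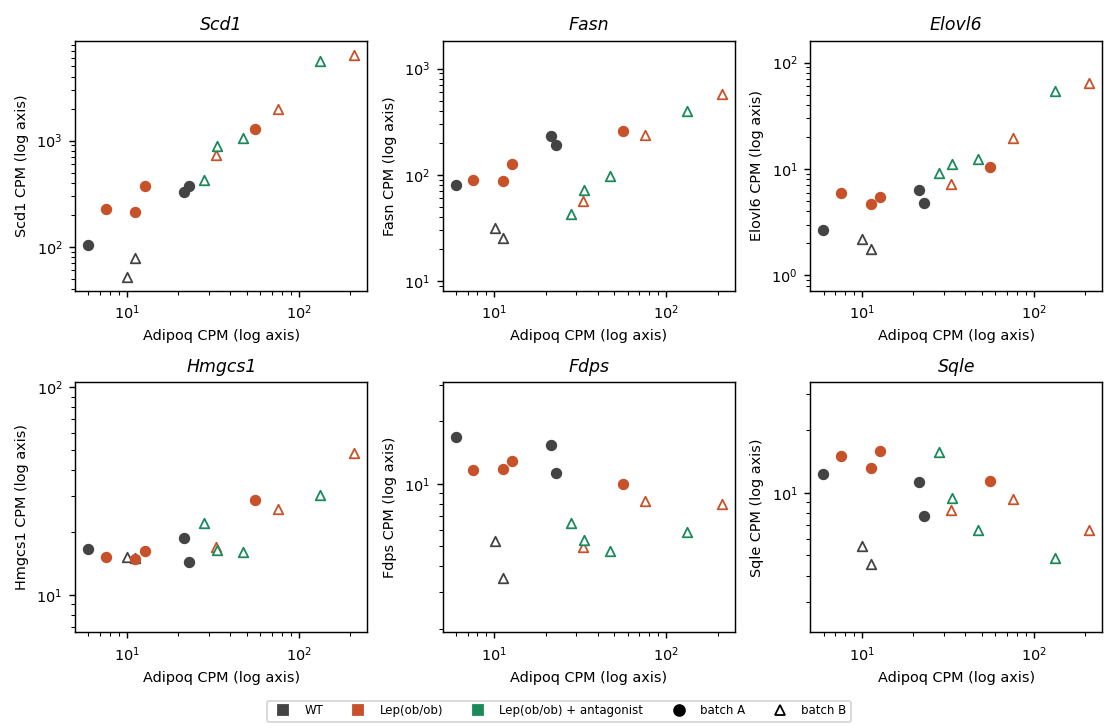
CPM of 3 fatty acid enzymes (top row) and 3 sterol enzymes (bottom row) against CPM of Adipoq in each of the 16 mice, both axes on a log scale, with color for the group and filled circles for batch A and open triangles for batch B. The vertical axes of the top row span a wider range than those of the bottom row. Scd1 climbs with Adipoq from 52.2 to 6424 CPM, Hmgcs1 climbs in the mice with the most Adipoq, and Fdps and Sqle do not climb.

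Scd1 had the steepest slope of the 35 genes, 1.24 ± 0.09 (SE, adjusted p = 3.09e-09 by edgeR). Me1 followed at 1.097 ± 0.07 (SE), Fasn at 1.001 ± 0.08 (SE), Acaca at 0.91 ± 0.07 (SE), Elovl6 at 0.90 ± 0.09 (SE) and Acss2, which makes acetyl-CoA from acetate, at 0.73 ± 0.06 (SE). These 6 genes passed in all 27 alternative fits of the slope, and in Acaca 30.4% and in Me1 22.9% of the distinct 50-base stretches also occur in another gene's transcript. The 9 other adipocyte markers had slopes with a median of 0.93, and all 9 passed. Acly, at 0.24 ± 0.06 (SE), and Elovl5, at 0.22 ± 0.06 (SE), had shallower slopes, which did not pass without mouse 463. Scd2, Fads1 and Fads2 did not pass.

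Of the sterol enzymes, the early steps of Acat2 (0.37 ± 0.08 SE), Hmgcs1 (0.32 ± 0.06 SE), Mvk (0.24 ± 0.09 SE) and Pmvk (0.22 ± 0.08 SE) and the late steps of Nsdhl (0.32 ± 0.07 SE) and Sc5d (0.13 ± 0.05 SE) had slopes that passed. When 1 of the 16 mice was left out at a time, the calls of Sc5d, Mvk, Pmvk and Nsdhl were lost in 9, 8, 5 and 1 of the fits, respectively, and each was lost without mouse 463. The slope of Sqle was -0.16 ± 0.08 (SE, adjusted p = 0.106 by edgeR) and that of Fdft1, the squalene synthase, -0.07 ± 0.06 (SE, adjusted p = 0.363 by edgeR). In Acat2, 39.1% of the distinct 50-base stretches also occur in another gene's transcript, that of Acat3 among them. Without mice 417, 461, 463 and 69 together, the count over the 35 genes was 6, the 6 fatty acid enzymes with the steepest slopes, no sterol enzyme passed, and the sterol median was -0.02. In that fit 0.682% of all genes passed in either direction, beside 34.1% over all 16 mice. Positive slopes passed for 7 of 7 macrophage, 6 of 6 mesenchymal, 4 of 5 tested lymphocyte, 3 of 5 endothelial and 1 of 8 duct markers, beside 18.9% of all genes. Negative slopes passed for 8 of 10 islet, 5 of 8 duct and 2 of 10 acinar markers, beside 15.2% of all genes, and all 10 islet and all 10 acinar slopes were below 0. The part of these cells in the slopes was not tested.

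**Figure D4:**
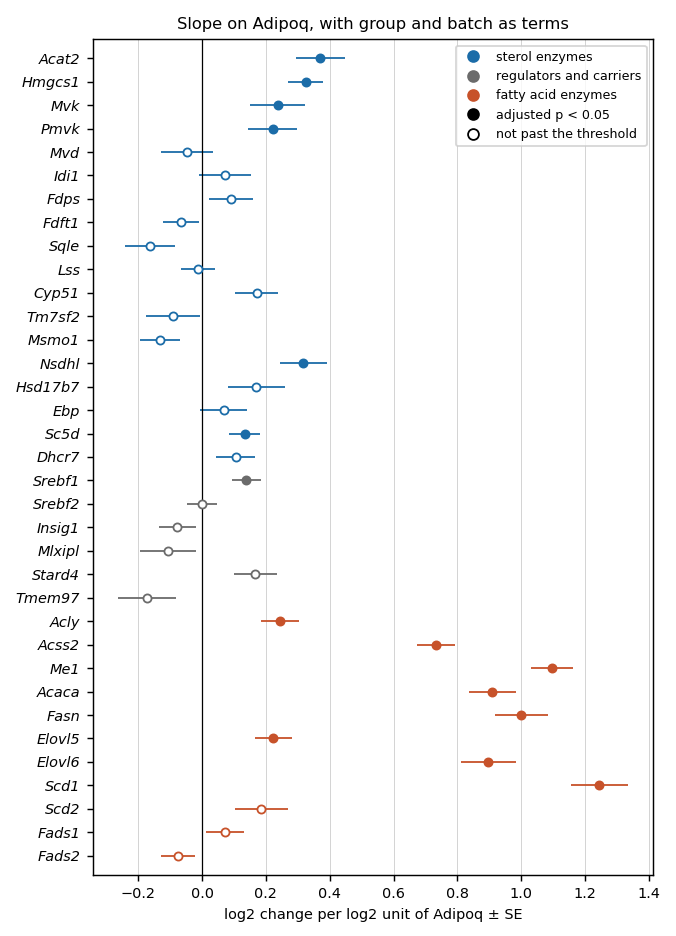
Slope of each of the 35 genes on Adipoq with group and batch as terms, in log2 units per log2 unit of Adipoq with its standard error (edgeR), with filled points for an adjusted p under 0.05. Scd1, Me1, Fasn, Acaca, Elovl6 and Acss2 lie between 0.73 and 1.24, apart from the other 29 genes, whose highest slope is 0.37.

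With Adipoq as a covariate in the comparison of genotypes, 5 of the 35 genes rose in Lep(ob/ob) mice and none fell, beside 12.0% of all genes that passed in either direction (edgeR, adjusted p under 0.05). Srebf1 (log2 0.46 ± 0.13 SE, adjusted p = 0.0293), Mlxipl (1.01 ± 0.26 SE, adjusted p = 0.0144) and Acly (0.58 ± 0.18 SE, adjusted p = 0.0421) were again among them. Sqle (0.68 ± 0.22 SE, adjusted p = 0.0446) and Scd1 (0.93 ± 0.26 SE, adjusted p = 0.0206) passed in this fit. The median over the fatty acid enzymes was 0.04 in place of 0.70, and that over the sterol enzymes was 0.05 in place of 0.22. Fasn, for example, had 0.95 ± 0.80 (SE) without and -0.23 ± 0.24 (SE) with the covariate, and the former was 0.42 without WT mouse 59 and 0.44 without WT mouse 58. With the mean log2 CPM of the 10 adipocyte markers as covariate in place of Adipoq, the medians were 0.58 and 0.19. In that fit 8 of the 35 genes and 17% of all genes passed. The 8 were Me1, Fasn, Elovl6 and Scd1 beside the 4 of the fit without a covariate. That score includes Cfd and Adrb3, whose mean log2 CPM was lower in Lep(ob/ob) than in WT mice (1.91 against 5.38, and -0.951 against 0.998). With Adipoq as a covariate, 4 of the other 9 adipocyte markers fell in Lep(ob/ob) mice and 1 rose (edgeR, adjusted p under 0.05). Part of the score thus moved with genotype apart from Adipoq, and its effect on the medians was not tested. With the mean log2 CPM of the islet markers the fatty acid and sterol medians were 2.23 and 0.37 (17 of the 35 genes and 28% of all genes passed), and with that of the acinar markers they were 0.28 and 0.19.

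The genotypes were then set against each other within each batch. In batch A alone the same 4 genes passed as over all mice, Srebf1, Mlxipl and Acly higher and Tmem97 lower, beside 8.68% of all genes, and the median was 0.24 over the fatty acid and 0.04 over the sterol enzymes. In batch B alone, with 3 Lep(ob/ob) and 2 WT mice, 0 of the 35 genes and 0.057% of all genes passed by edgeR, 15 of the 35 and 16.9% of all genes had an unadjusted p under 0.05, and the medians were 2.38 and 0.61. Scd1 had a log2 fold change of 1.07 ± 0.70 (SE) in batch A and 5.49 ± 1.38 (SE) in batch B, and Fasn had -0.18 ± 0.46 (SE) and 3.31 ± 1.0997 (SE). Adipoq differed likewise, with 7.54 to 55.9 CPM in Lep(ob/ob) and 5.99 to 22.9 CPM in WT mice of batch A, and 33.0 to 211 CPM in Lep(ob/ob) and 10.1 to 11.3 CPM in WT mice of batch B. The interaction of genotype and batch passed for 0 of the 35 genes and for 0% of 13189 genes by edgeR, with 13 of the 35 and 11.9% of all genes at an unadjusted p under 0.05, and was 4.45 ± 1.28 (SE, adjusted p = 0.335) for Scd1.

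**Figure D5:**
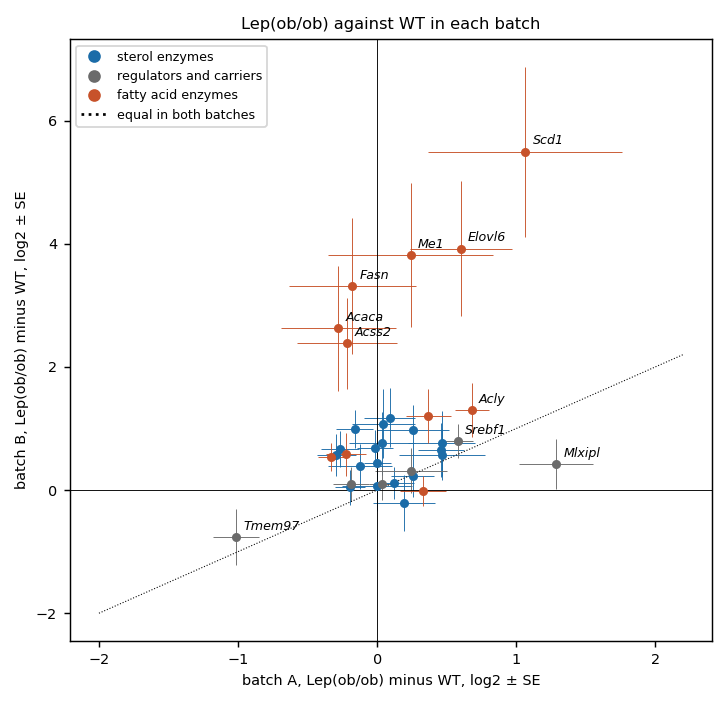
Log2 fold change of Lep(ob/ob) minus WT mice in batch B against that in batch A, with standard errors (edgeR), 1 point per gene, and a dotted line where both would be equal. The axes differ in scale. Scd1, Elovl6, Me1, Fasn, Acaca and Acss2 lie far above the line, with 2.38 to 5.49 in batch B, and Mlxipl lies below it.

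Of the 16 genes described mouse by mouse, Srebf1, Mlxipl, Tmem97, Acly and Fads1 had no overlap between the genotypes in batch A, as had 21.0% of all genes. These genes were chosen from fits that include the same mice, and an exact permutation test of 4 against 3 mice cannot fall below a two-sided p of 0.0571, so this is a description. Fads1 was lower in the Lep(ob/ob) mice of batch A, at 27.7 to 34.6 CPM against 37.8 to 47.1 CPM in WT.

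To ask whether blocking the CCK receptors changes these genes in obese mice, CCKRi-treated were compared with control Lep(ob/ob) mice. None of the 35 genes passed by edgeR, 4 had an unadjusted p under 0.05 (5 by DESeq2, which also called none), and over all genes 0.0586% passed and 14.3% had an unadjusted p under 0.05 by edgeR. The estimates were negative for 28 of 35 genes, with a median log2 fold change of -0.19 over the sterol enzymes and -0.26 over the fatty acid enzymes, beside -0.01 over all genes. In batch B alone, which holds every treated mouse, they were -0.36 and -0.57, and in a fit of these 2 groups alone -0.42 and -0.65. The fatty acid median was 0.24 with the proglumide mice and -0.93 with the lorglumide mice alone, where the sterol median was -0.20 with either. The proglumide mice include mouse 69, which had the most Adipoq of the treated mice, and the drugs were not compared. Without control mouse 463 alone the sterol and fatty acid medians were 0.03 and 0.60, so that 1 mouse turned both. Without mice 417, 461, 463 and 69, picked for having the most Adipoq, they were 0.07 and 0.75. Leaving out any other single mouse kept the fatty acid median between -0.87 (without CCKRi-treated mouse 69) and -0.07 (without mouse 76). The 7 macrophage markers had a median log2 fold change of -1.19 with 7 at an unadjusted p under 0.05, the 6 mesenchymal markers one of -0.87 with 5, the 8 duct markers one of 0.14 with 4, the 10 acinar markers one of -0.37 with 2, the 10 adipocyte markers one of -0.38 with 0 and the 10 islet markers one of 0.49 with 0, and none passed the adjusted threshold by edgeR. In batch B the summed macrophage markers lay between 202 and 852 CPM in control and between 106 and 311 CPM in treated mice, and the mesenchymal markers between 377 and 1235 and between 243 and 536 CPM. Their part in the estimates was not tested.

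Among the sterol enzymes, Nsdhl had the largest estimate, -0.60 ± 0.34 (SE, adjusted p = 0.418 by edgeR), which was -0.12 without control mouse 463 and -0.90 without treated mouse 69. Its levels were 6.55, 11.6 and 3.70 CPM in control mice 461, 463 and 464 of batch B and 6.46, 3.33, 3.34 and 3.30 CPM in CCKRi-treated mice 69, 72, 74 and 76. The groups overlapped, since mouse 69 stood beside mouse 461. Mvd, the decarboxylase that yields isopentenyl diphosphate, had 3.24, 2.37 and 1.92 CPM in the control mice of batch B and 1.44, 1.53, 1.40 and 2.09 CPM in the CCKRi-treated mice (log2 -0.50 ± 0.26 SE, adjusted p = 0.386 by edgeR, and -0.31 without control mouse 461). Mvk, the mevalonate kinase, had 2.71, 3.502 and 1.79 CPM in the control mice and 2.65, 2.11, 0.912 and 1.15 CPM in the treated mice (log2 -0.46 ± 0.33 SE, adjusted p = 0.515 by edgeR). That estimate was -0.21 without control mouse 463, -0.26 without treated mouse 74 and -0.75 without treated mouse 69. The treated mice lay lower than most control mice for both genes, and in each the groups overlapped.

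Of the regulators, Srebf1 stood at 29.2, 35.8 and 20.4 CPM in the control mice of batch B and at 24.2, 16.3, 15.7 and 16.1 CPM in the CCKRi-treated mice. Its log2 fold change was -0.58 ± 0.18 (SE, adjusted p = 0.254 by edgeR), and with Adipoq as a covariate it was the 1 gene of the 35 that passed, at a lower level in treated mice, beside 3.65% of all genes. In that fit 7 of 7 macrophage and 3 of 6 mesenchymal markers were also lower, and 1 of 8 duct markers was higher and 1 lower. Mlxipl stood at 8.88, 19.5 and 26.4 CPM in the control mice and at 22.8, 33.2, 36.95 and 24.3 CPM in the treated mice (log2 0.49 ± 0.32 SE, adjusted p = 0.471 by edgeR, and 0.21 without control mouse 461). Tmem97 stood at 164.2, 69.9 and 102 CPM in the control mice and at 39.9, 75.5, 71.1 and 115 CPM in the treated mice (log2 -0.50 ± 0.31 SE, adjusted p = 0.453 by edgeR). That estimate was -0.21 without control mouse 461, -0.28 without treated mouse 69 and -0.77 without treated mouse 76.

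Among the fatty acid enzymes, Scd2 had 200.3, 213 and 75.0 CPM in the control mice of batch B and 137, 83.8, 76.3 and 80.02 CPM in the treated mice (log2 -0.59 ± 0.30 SE, adjusted p = 0.379 by edgeR, and -0.35 without control mouse 463). Fads1 had 41.3, 29.7 and 25.0 CPM in the control mice and 21.1, 19.7, 18.4 and 20.96 CPM in the treated mice (log2 -0.47 ± 0.20 SE, adjusted p = 0.315 by edgeR, and -0.24 without control mouse 461). Fads1 was the 1 gene of the 16 whose groups did not overlap in batch B, beside 8.49% of all genes, which is a description because its fold change in these mice put it among the 16. Fads2 had 16.9, 10.8 and 13.6 CPM in the control mice and 9.11, 11.7, 10.2 and 9.44 CPM in the treated mice (log2 -0.51 ± 0.18 SE, adjusted p = 0.279 by edgeR). Acly had 143, 251 and 78.0 CPM in the control mice and 168, 98.5, 112 and 107 CPM in the treated mice, which overlap.

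The steep genes followed Adipoq in the treated mice too. Scd1 had 1991, 6424 and 733 CPM in control mice 461, 463 and 464 and 5598, 1065, 888 and 424 CPM in CCKRi-treated mice 69, 72, 74 and 76, the order that Adipoq had in both groups. Its log2 difference was 0.02 ± 0.94 (SE), an error too wide to show a change of 1 log2 unit in either direction, and it was 1.26 without control mouse 463 and -1.29 without treated mouse 69. Me1 had 59.8, 211 and 18.9 CPM in the control mice and 146, 31.6, 25.2 and 16.99 CPM in the treated mice, and Elovl6 had 19.6, 65.0 and 7.22 CPM and 53.9, 12.5, 11.2 and 9.17 CPM. The proglumide mice 69 and 72 and the lorglumide mice 74 and 76 received different doses, so their values stand side by side without a comparison.

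Against WT, 2 of the 35 genes passed in CCKRi-treated mice, beside 5.57% of all genes (edgeR, adjusted p under 0.05). Mlxipl rose by 1.38 ± 0.33 (SE, adjusted p = 0.0179) and Tmem97 fell, with a log2 fold change of -1.44 ± 0.33 (SE, adjusted p = 0.0144). Both calls were lost without WT mouse 58 (adjusted p = 0.0614 and 0.0731) and without CCKRi-treated mouse 74 (adjusted p = 0.0671 and 0.0532). For Srebf1 the log2 difference from WT was 0.06 ± 0.20 (SE, adjusted p = 0.927) and for Acly it was 0.69 ± 0.31 (SE, adjusted p = 0.269). In a fit of these 2 groups alone Mlxipl and Tmem97 did not pass (adjusted p = 0.0851 and 0.0762 by edgeR). Scd1 (adjusted p = 0.0359) and Elovl6 (adjusted p = 0.0406) passed in that fit at a higher level in treated mice, beside 2.18% of all genes. Islet markers were higher in the treated mice as well (8 of 10 passed, median log2 fold change 2.29), and Mlxipl did not pass with the islet or with the acinar marker score as covariate, while Tmem97 did with both. The comparison shares its WT mice with the comparison of genotypes.

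Further genes of both pathways were read from lists set by pathway. Of 25 other sterol genes 24 were tested, and 4 of these rose and none fell in Lep(ob/ob) mice, beside 5.93% of all genes that rose. Among them were Abca1, a cholesterol exporter, with 21.4 to 48.0 CPM in WT and 43.4 to 88.1 CPM in Lep(ob/ob) mice (log2 0.92 ± 0.25 SE, adjusted p = 0.0299 by edgeR), and Npc1, a lysosomal cholesterol transporter, with 6.997 to 12.02 CPM in WT and 12.01 to 16.4 CPM in Lep(ob/ob) mice (log2 0.62 ± 0.14 SE, adjusted p = 0.0105 by edgeR). For both genes the genotypes overlapped over all mice. Within batches Npc1 did not overlap in either batch (9.48 to 12.02 against 14.04 to 16.2 CPM in batch A, 6.997 to 7.59 against 12.01 to 16.4 CPM in batch B), and Abca1 did not overlap in batch B. The share of all genes without overlap was 21.0% in batch A and was not counted in batch B. With Adipoq as a covariate the log2 fold change was 0.54 for Abca1 (adjusted p = 0.0291 by edgeR) and 0.43 for Npc1 (adjusted p = 0.0133 by edgeR). In that fit 4 of the 24 rose and none fell in Lep(ob/ob) mice, beside 12.0% of all genes in either direction. No gene of the list passed between treated and control Lep(ob/ob) mice by edgeR, with 7 of 24 at an unadjusted p under 0.05, beside 14.3% of all genes. With Adipoq as a covariate 2 of the 24 were lower and none higher in treated mice, beside 3.65% of all genes. Between treated and WT mice 1 of the 24 rose and 1 fell, beside 5.57% of all genes in either direction. The gene that fell was Scap, the escort of the SREBP factors (log2 -0.55 ± 0.15 SE, adjusted p = 0.0338 by edgeR).

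Of 38 other fatty acid and lipid genes 34 were tested. None passed between genotypes by edgeR, with 13 at an unadjusted p under 0.05 beside 23.8% of all genes, and none between treated and control Lep(ob/ob) mice, with 3 beside 14.3%. Between treated and WT mice none of the 34 rose and 1 fell, beside 5.57% of all genes in either direction. It was the mitochondrial malic enzyme gene Me3 (log2 -0.98 ± 0.27 SE, adjusted p = 0.0430 by edgeR). On Adipoq, 17 of the 34 had a positive and 4 a negative slope past the threshold, beside 18.9% and 15.2% of all genes. The steepest were those of Dgat2, which makes triglyceride (1.09 ± 0.06 SE), Pnpla3, a lipid droplet protein (1.09 ± 0.07 SE), and Thrsp, a lipogenic gene of fat and liver (1.01 ± 0.07 SE). With Adipoq as a covariate, 3 of the 34 rose and none fell in Lep(ob/ob) mice, beside 12.0% of all genes in either direction. Dgat2 was among them (log2 1.18 ± 0.20 SE, adjusted p = 0.000283 by edgeR). Among 24 other sterol genes, 7 had a positive and 1 a negative slope, the steepest being that of Npc2, a lysosomal sterol carrier, at 0.43 ± 0.06 (SE).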

How the data were processed

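Pancreas RNA was measured in 16 libraries, each from 1 mouse. The authors deposited raw counts per gene symbol, made from reads trimmed with Trim Galore 0.6.7 and cutadapt 3.5 and aligned to mm10 with STAR 2.7.9. The read counter, its strand setting and the annotation are not given in the sources used here. A second deposited table of normalized values was not used. Groups and batches follow the labels. Libraries of 1 group differed by a chi-square per gene of 8.09 to 410 (sampling noise gives about 1), so no pair was treated as 1 sample.

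Counts were fitted in R 4.3.3 with edgeR 4.0.16 (filterByExpr, TMM, quasi-likelihood test, group and batch over 16 libraries, Benjamini-Hochberg over 13660 genes). CPM are TMM-normalised, and log2 CPM used a prior count of 2. The slope used log2 CPM of Adipoq as a term beside group and batch. The models were tested on simulated data. Exon blocks and shared 50-base stretches come from GENCODE on GRCm38, promoters from RefSeq. The 35 genes, the pathway and the cell type marker lists were chosen with earlier results of these data known. Genes were described mouse by mouse when past the threshold in Lep(ob/ob) against WT or CCKRi against Lep(ob/ob), or among the 3 largest estimates of their class, and up to 5 further pathway genes were named per list. The values of 2 genes of the sterol list are not reported here. Alternatives were DESeq2 1.42.0, other normalizations and filters, no batch, marker scores as covariates, and mice, batches or drugs left out. The p-values measure the spread between these mice.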

Additional observations from a re-analysis of the deposited data

Results flagged for a closer look

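Each of 36 genes (the 35 genes and Adipoq) was searched in 3 groups for a mouse that stood apart on the log2 CPM scale by Dixon's ratio, the gap to the next mouse over the range of the group. Of 108 groups, 9 passed the 95% critical value (0.829 for 4 mice and 0.568 for 7), where chance flags about 1 in 20, or 5.4.

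CCKRi-treated mouse 69, which had the most Adipoq of its group, was the highest for 4 genes. Its ratio was 0.983 for Nsdhl (6.46 CPM against 3.30 to 3.34 in the other treated mice), 0.916 for Srebf1 (24.2 against 15.7 to 16.3 CPM), 0.841 for Acss2 (26.3 against 7.01 to 8.66 CPM) and 0.841 for Scd2 (137 against 76.3 to 83.8 CPM). Lep(ob/ob) mouse 464 was the lowest for 3 genes, with ratios of 0.764 for Scd2 (75.0 against 167 to 213 CPM), 0.654 for Idi1 (1.15 against 1.73 to 2.14 CPM) and 0.601 for Dhcr7 (4.15 against 7.00 to 9.87 CPM). Lep(ob/ob) mouse 463, which had the most Adipoq of all 16 mice, was the highest for Cyp51 at a ratio of 0.757 (14.7 against 7.63 to 8.95 CPM). CCKRi-treated mouse 76 was the lowest for Tm7sf2 at a ratio of 0.848 (1.35 against 2.32 to 2.56 CPM). The cause was not tested.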

How the results depend on the processing

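Between the genotypes 4 of the 35 genes passed. The count was 0 without the batch covariate, 0 where a log2 change of 1 was also required and 0 in batch B alone (5.84%, 5.21% and 0.057% of all genes, against 9.07%). It was 8 with the adipocyte marker score and 17 with the islet marker score as covariate (17% and 28%). When 1 mouse was left out it lay between 0 and 4. It was 0 without WT mouse 58 (6.21%), 1 without WT mouse 5489 (6.14%) and 2 without Lep(ob/ob) mouse 441, 472 or 417 (7.44%, 7.61% and 6.66%). Between treated and control Lep(ob/ob) mice 0 passed, beside 0.0586% of all genes, against 2 without the batch covariate (Srebf1 and Fads2, both lower, beside 4.17%). It was 1 with Adipoq and 1 with the adipocyte marker score as covariate (3.65% and 3.1%). In each fit without 1 mouse it was 0, where at most 0.0657% of all genes passed. Between treated and WT mice 2 passed, against 5 without the batch covariate, 4 with Adipoq, 6 with the adipocyte score and 9 with the islet score (10.5%, 16.5%, 12.7% and 9.85% of all genes, against 5.57%). The count was 5 without mice 417, 461, 463 and 69 (9.64%), 0 in batch B alone (0.0926%) and 1 with the proglumide mice alone (1.65%). When 1 mouse was left out it was lowest, at 0, without WT mouse 58 (4.01%) or CCKRi-treated mouse 74 (3.7%). It was highest, at 4, without Lep(ob/ob) mouse 463 (7.17%). For the slope on Adipoq 15 passed, beside 34.1% of all genes in either direction. The count was 6 without those 4 mice (0.682% of all genes) and 7 in batch A alone (7.92%, chosen after seeing the data). When 1 mouse was left out it was lowest, at 8, without mouse 463, where the share of all genes was 16.1%. It was highest, at 17, without WT mouse 5489 (36%) or Lep(ob/ob) mouse 461 (34.9%). Of the slopes that passed, those that turned were those of Srebf1 without the batch covariate (-0.0161) and, without the 4 mice, of Sc5d (-0.0654), Srebf1 (-0.0334), Acly (-0.0077) and Elovl5 (-0.0132), and that of Sc5d in batch A alone (-0.0107). Slopes that did not pass turned as well, Scd2 (0.18, lowest -0.23) among them. DESeq2, RLE scaling, scaling without the 50 most counted genes and both filters kept each count within 1.5 times. The cause was not tested. Batches A and B differ in depth, and all treated mice are in batch B, so within that batch they can be set against 3 control Lep(ob/ob) mice. No paired analysis was possible because the groups share no replicate number.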
